A study of Mus musculus with 3 samples.

Results

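The genes described here are 10 long-used markers of astrocytes, the star-shaped glial cells that feed, insulate and signal to neurons. They are Aldh1l1, Aldoc, Acsbg1, Ppp1r3c, Ndrg2, Clu, Slc7a10, Ntsr2, Bmpr1b and Cldn10, taken by symbol from a table of 16610 genes, and all 10 were found in it. The table came from 3 mouse brain libraries, each made from the middle section of 1 hemisphere and pooling 3 animals with 2 technical replicates. The MCAO left hemisphere came from animals whose middle cerebral artery was blocked for 1 h (MCAO, a model of stroke) and that were killed after 3 days. The contralateral right hemisphere came from MCAO animals as well, on the side opposite the occlusion, at the same time. The control right hemisphere came from animals without MCAO, also taken at 3 days. Ribosome-bound RNA was isolated in all 3 groups by RiboTag pull-down, in which an antibody against a tag on the ribosomes of chosen cells brings down those ribosomes and the messages they are reading. The series title speaks of astrocytes. Strain, age and the Cre driver that sets which cells carry the tag are not given in the sources used here. No left hemisphere without MCAO was analysed here, so side and occlusion cannot be told apart in comparisons of left with right.

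Astrocytes take up glucose, hold most of the brain's glycogen, make lipids and serine for their neighbours, and send processes to vessels and synapses. After stroke, astrocytes near the lesion become reactive: they enlarge and make more filament proteins such as GFAP, while the markers that define the resting cell may be kept or lost. The 10 genes cover several of these jobs. Aldh1l1, Aldoc and Acsbg1 encode enzymes of folate, sugar and fatty acid metabolism, and Ppp1r3c encodes a subunit that steers a phosphatase to glycogen. Ndrg2 encodes a cytoplasmic protein and Clu a secreted chaperone, and Slc7a10, Ntsr2, Bmpr1b and Cldn10 encode proteins of the cell membrane.

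Values are normalised read counts, that is, the reads of a gene divided by a size factor for its library. The reads recovered from the values of the 16610 genes summed to 25930258 in MCAO left, 33886604 in contralateral right and 31833456 in control right. With 1 library per group, no difference could be set against the spread between replicates, and there are no p-values. Ratios are given with exact Clopper-Pearson 95% intervals, which cover counting error only. In pooled tissue, changes in the number of tagged cells, in transcripts per cell and in their share on ribosomes cannot be told apart. The contralateral library stood apart in holding transcripts of sperm formation: 15 male germ cell genes summed to 1659 normalised counts in the MCAO left, 15317 in the contralateral right and 1588 in the control right hemisphere. Comparisons with the contralateral library rest on it alone. The ratios of MCAO left to control right take no values from it. It does enter the mean over the 3 libraries by which genes were kept for counts and medians, also in that comparison.

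The 10 genes stayed within 2-fold in all 3 comparisons. Ppp1r3c, Aldh1l1, Clu and Aldoc were higher in the MCAO left than in the control right hemisphere by at least 1.2-fold, and the other 6 lay closer to the control. The median difference over the 10 genes, on the log2(normalised count + 5) scale, was 0.13, against -0.0027 over the 14906 genes with a mean of at least 20. At 2-fold, 4.12% of those genes were higher and 1.25% were lower, against 0 of 10 in each direction. At 1.2-fold, 23.3% of them were higher and 21.1% were lower, against 4 and 0 of the 10. All 10 genes passed the filter on low values and had means above 1000, where differences this large were rarer. Of 6145 such genes, 14.4% were higher and 19.4% were lower by 1.2-fold. By 2-fold, 55 of the 6145 were higher and 19 lower, so 0 of 10 does not set these genes apart.

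**Figure D1:**
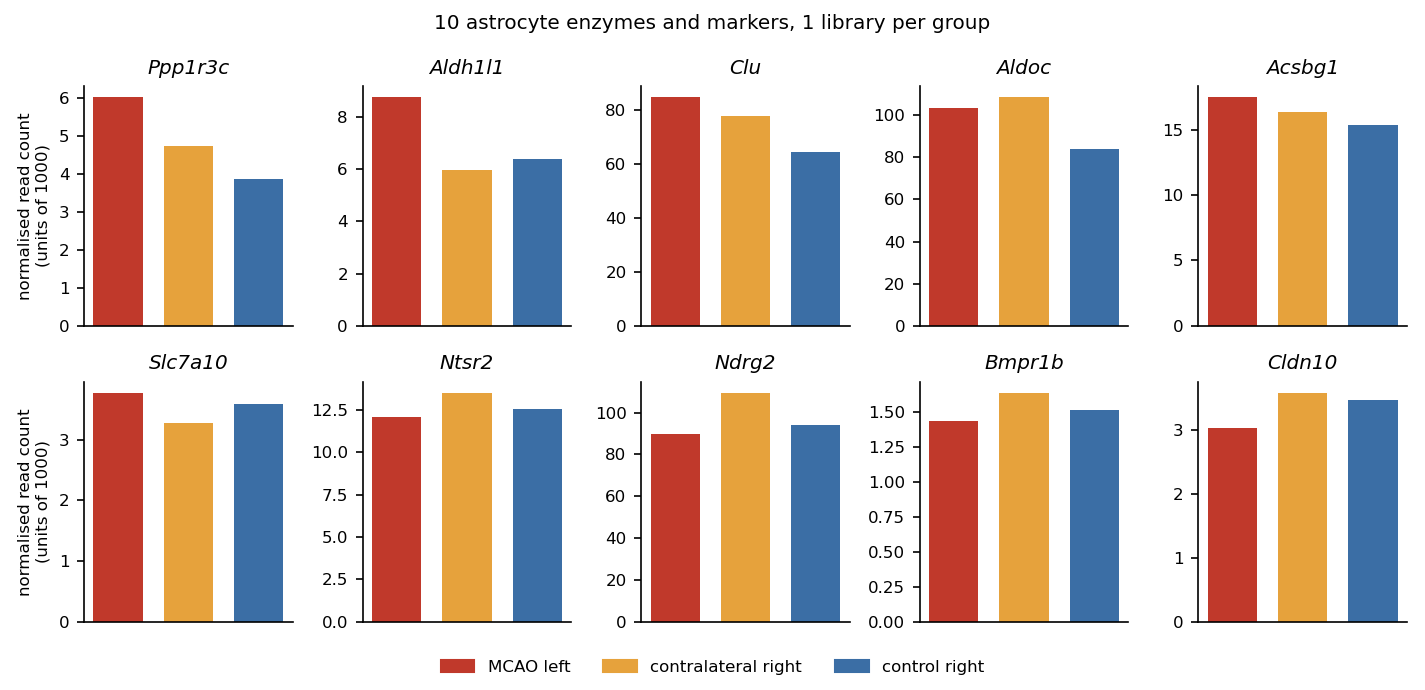
Normalised read counts (in units of 1000, vertical axis from 0, a separate scale for each gene) of the 10 genes in the MCAO left, contralateral right and control right hemispheres, 1 library each, so there are no error bars. Ppp1r3c stood at 6025, 4754 and 3863 in that order, while Aldoc, Ndrg2, Ntsr2, Bmpr1b and Cldn10 were highest in the contralateral library.

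Ppp1r3c had the largest difference from the control. Its product, called protein targeting to glycogen, brings protein phosphatase 1 to glycogen and so favours glycogen synthesis. The gene lies on chromosome 19 (36731731 to 36736604). It had 6025 normalised counts in the MCAO left, 4754 in the contralateral right and 3863 in the control right hemisphere. Both hemispheres of the MCAO animals were above the control, and the MCAO left hemisphere was highest. The ratio of MCAO left to control right was 1.56 (1.5 to 1.63), larger than for 92.0% of genes, and that of MCAO left to contralateral right was 1.27 (1.22 to 1.32). The contralateral right hemisphere stood at 1.23 times the control (1.18 to 1.28).

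The other glycogen-targeting subunits did not share this pattern. Ppp1r3g had 498 normalised counts in the MCAO left, 555 in the contralateral right and 791 in the control right hemisphere, and Ppp1r3e had 63.5, 90.5 and 112 in the same order. Both were thus lowest in the MCAO left hemisphere. Ppp1r3b, Ppp1r3d and Ppp1r3f differed from the control by -0.05, 0.11 and -0.24 on the log2 scale. Of 28 glycogen genes past the filter, 3 were higher and 4 lower in the MCAO left than the control right hemisphere by 1.2-fold. The shares over all genes were 23.3% and 21.1%, and the median difference of the 28 was -0.01. Epm2a, encoding the glycogen phosphatase laforin, had 218, 372 and 441 normalised counts and was the furthest from the control. Gsk3b, a kinase that inhibits glycogen synthase, had 5233, 5586 and 7034. The muscle-type synthase gene Gys1 had 987, 733 and 774, and the glycogen primer gene Gyg had 1476, 1190 and 1173, so both were highest in the MCAO left hemisphere.

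Aldh1l1, on chromosome 6 (90550768 to 90599171), encodes a folate enzyme that oxidises formyl-tetrahydrofolate and is one of the most widely used astrocyte markers. It had 8750 normalised counts in the MCAO left, 5967 in the contralateral right and 6381 in the control right hemisphere. The MCAO left hemisphere was above both right hemispheres, which lay near each other. Its ratio to the control was 1.37 (1.33 to 1.42) and its ratio to the contralateral library 1.47 (1.42 to 1.52), the highest of the 10 genes in that comparison. The contralateral right hemisphere was at 0.935 of the control (0.904 to 0.968).

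Aldh1l2, the mitochondrial relative of Aldh1l1, was higher as well. It had 307 normalised counts in the MCAO left, 152 in the contralateral right and 117 in the control right hemisphere, a ratio to the control of 2.62 (2.1 to 3.28). Among 21 genes of folate and one-carbon metabolism past the filter, the median difference of MCAO left from control right was 0.14. By 1.2-fold, 8 of them were higher and 3 were lower. Over all genes past the filter, 23.3% were higher and 21.1% lower by 1.2-fold, and 4.12% higher and 1.25% lower by 2-fold. The 2 that passed 2-fold were Aldh1l2 and Tyms, the thymidylate synthase gene, which had 202, 38.2 and 27.1 normalised counts in that order. The mitochondrial folate enzyme gene Mthfd2 had 395, 283 and 269. These genes were all highest in the MCAO left hemisphere. Tyms also serves DNA synthesis in dividing cells, and the part of dividing cells in these values was not tested.

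The sequences just before the annotated starts of the 2 genes highest above the control and of the gene furthest below it, Cldn10 with its 2 annotated starts, are shown because these genes mark the ends of the range. Each is the 250 bases before an annotated start, from RefSeq on GRCm38.p6 (the mm10 assembly), 5′ to 3′ on the strand of the gene. For Aldh1l1 that start lies inside the gene, whose first base is 90550768. The windows are chr19:36736605-36736854, minus strand (Ppp1r3c), chr6:90550543-90550792, plus strand (Aldh1l1), chr14:118787621-118787870, plus strand (Cldn10, outer start) and chr14:118854700-118854949, plus strand (Cldn10, inner start). Capitals mark matches on either strand to any of 6 motifs, namely STAT (TTCNNNGAA), heat shock (GAANNTTC), hypoxia response (ACGTG), an NFI half-site (TTGGC), SOX (ACAAT) and the TATA box (spelled TATAAA).
Ppp1r3c: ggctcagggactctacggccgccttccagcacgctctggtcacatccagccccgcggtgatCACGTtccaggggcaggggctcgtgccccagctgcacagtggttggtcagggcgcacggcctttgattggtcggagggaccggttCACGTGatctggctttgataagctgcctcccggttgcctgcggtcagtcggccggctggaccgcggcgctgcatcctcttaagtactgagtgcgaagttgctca
Aldh1l1: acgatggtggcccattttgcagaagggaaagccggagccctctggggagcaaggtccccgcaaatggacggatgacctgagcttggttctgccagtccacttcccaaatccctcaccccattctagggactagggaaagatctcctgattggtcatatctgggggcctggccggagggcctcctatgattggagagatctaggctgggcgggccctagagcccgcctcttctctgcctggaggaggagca
Cldn10 outer start: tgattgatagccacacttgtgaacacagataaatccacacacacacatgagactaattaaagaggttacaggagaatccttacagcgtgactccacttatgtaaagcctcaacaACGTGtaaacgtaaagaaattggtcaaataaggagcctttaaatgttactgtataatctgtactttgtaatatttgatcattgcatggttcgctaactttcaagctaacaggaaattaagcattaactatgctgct
Cldn10 inner start: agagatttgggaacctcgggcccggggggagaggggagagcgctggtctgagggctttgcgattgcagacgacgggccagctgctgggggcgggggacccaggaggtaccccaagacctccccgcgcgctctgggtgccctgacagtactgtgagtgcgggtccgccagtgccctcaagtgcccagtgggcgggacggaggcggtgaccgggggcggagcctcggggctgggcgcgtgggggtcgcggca
The Ppp1r3c window held ACGTG on either strand at 2 places, one of them a palindrome that matches on both strands, and the Cldn10 outer window held it at 1 place. This motif was in 16.6% of the 32851 windows in the table. The Aldh1l1 and Cldn10 inner windows held none of the 6 motifs. GC content was 64.4% for Ppp1r3c, 59.6% for Aldh1l1, 36.0% for the outer and 72.4% for the inner Cldn10 window. Among the 15 windows of 9 of the 10 genes, 3 held the STAT motif (Acsbg1, Aldoc and Ntsr2, against 7.02% of all windows). The hypoxia motif was in 3, the NFI half-site in 6 (against 41.5%) and the TATA motif in 2 (against 12.4%). None held the heat shock motif (against 6.69%). The SOX motif was in 4 windows (against 27.7%) of only 2 genes, Bmpr1b and Aldoc. Windows of the same gene can overlap, and 2 of those of Bmpr1b shared the same SOX match. Clu had no entry. A match describes these letters and is no evidence of binding.

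Aldoc encodes aldolase C, the brain form of the glycolytic enzyme that splits fructose bisphosphate, and lies on chromosome 11 (78323073 to 78327781). It had 103646 normalised counts in the MCAO left, 108474 in the contralateral right and 83934 in the control right hemisphere. Both hemispheres of the MCAO animals were above the control, and unlike Ppp1r3c and Aldh1l1 the contralateral library was the highest. The MCAO left hemisphere stood at 1.23 times the control (1.22 to 1.25) and 0.955 times the contralateral library (0.947 to 0.964). The contralateral library was 1.29 times the control (1.28 to 1.30), the largest ratio of the 10 genes in that comparison.

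Aldoa, the form of aldolase found in most tissues, had 57978 normalised counts in the MCAO left, 54792 in the contralateral right and 57519 in the control right hemisphere, a difference of 0.01 from the control on the log2 scale. Of 18 glycolysis and lactate genes past the filter, 3 were higher and 1 was lower in MCAO left than control right by 1.2-fold. The median was 0.07, and 23.3% of all genes were higher and 21.1% lower. The hexokinase gene Hk2 had 301, 172 and 133, the platelet-type phosphofructokinase gene Pfkp had 21239, 17097 and 15013, and the phosphoglycerate kinase gene Pgk1 had 17692, 16077 and 13532. All 3 were ordered from MCAO left to contralateral right to control right, as was Ppp1r3c. The gene that was lower, Fbp1, had 1.18, 169 and 3.87 normalised counts, and passed the filter only through the contralateral library. It had 1 read in MCAO left and 4 in control right. These did not differ beyond counting error, at a ratio of 0.304 (0.0062 to 3.07).

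Acsbg1, on chromosome 9 (54604886 to 54661885), encodes an acyl-CoA synthetase that activates long-chain fatty acids. It had 17471 normalised counts in the MCAO left, 16338 in the contralateral right and 15381 in the control right hemisphere. The order was the same as for Ppp1r3c with smaller steps: 1.14 times the control (1.11 to 1.16) for MCAO left and 1.06 times (1.04 to 1.09) for contralateral right. Of 15 other acyl-CoA synthetases past the filter, 5 were above the control in the MCAO left hemisphere and 9 below it. Their median was -0.02. None was higher and 3 were lower by 1.2-fold, where 23.3% and 21.1% of all genes were, and Acsbg1 itself did not pass 1.2-fold. Acsf2, Slc27a3 and Slc27a1 differed from the control by 0.24, 0.22 and 0.18 on the log2 scale, and Acsbg1 by 0.18. The 15 include Acsbg2, listed at the minimum of 1 in both libraries. Acsl3, which serves lipid droplets, had 11770, 13683 and 14156 normalised counts in the order MCAO left, contralateral right and control right, and the fatty acid transporter gene Slc27a2 had 149, 192 and 239. Acss2, encoding the cytosolic acetyl-CoA synthetase, had 2171, 1996 and 2586. The mitochondrial acetyl-CoA synthetase relative Acss3 had 24.7, 33.7 and 31.0, at low counts.

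Clu encodes clusterin, a secreted chaperone also known as apolipoprotein J, and lies on chromosome 14 (65968483 to 65981548). It had 84817 normalised counts in the MCAO left, 78001 in the contralateral right and 64564 in the control right hemisphere. It was highest in the MCAO left hemisphere, and the contralateral library was nearer to it than to the control. The ratio was 1.31 (1.30 to 1.33) to the control and 1.09 (1.08 to 1.10) to the contralateral library, and the contralateral library stood at 1.21 times the control (1.2 to 1.22).

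Other genes of lipoproteins and their receptors were mixed. Of 16 past the filter, 6 were higher and 3 were lower in the MCAO left than in the control right hemisphere by 1.2-fold. Over all genes 23.3% were higher and 21.1% lower, and the median of the 16 was 0.10. Apod, encoding apolipoprotein D, had 6824 normalised counts in the MCAO left, 5866 in the contralateral right and 2512 in the control right hemisphere, so that like Clu it was higher in both hemispheres of the MCAO animals. Apoe, encoding the main lipoprotein of astrocytes, had 264758, 277945 and 229554. Lpl, encoding lipoprotein lipase, had 3621, 1909 and 2057. Trem2, a receptor of microglia that binds clusterin, had 822, 143 and 124 normalised counts. It belongs to the microglia list as well, and all 20 genes of that list passed the filter.

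**Figure D2:**
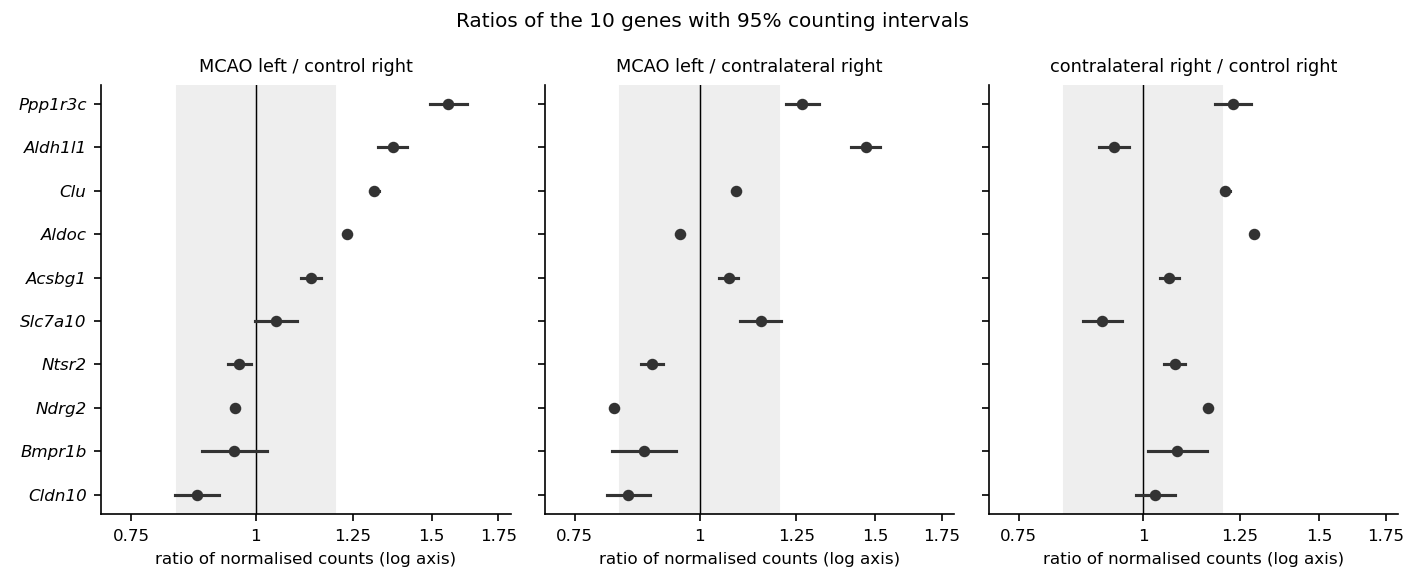
Ratios of normalised counts on a log axis for MCAO left over control right, MCAO left over contralateral right and contralateral right over control right, 1 library per group. Points are ratios, lines are 95% counting intervals (often narrower than the point) and the grey band marks differences under 1.2-fold; only Ppp1r3c and Aldh1l1 lay right of the band in both comparisons of MCAO left.

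Ndrg2 encodes a stress-responsive cytoplasmic protein known as a marker of mature astrocytes, and lies on chromosome 14 (51905271 to 51914004). It had 89739 normalised counts in the MCAO left, 109290 in the contralateral right and 94143 in the control right hemisphere. The contralateral library was highest and the MCAO left hemisphere lowest. The ratio of MCAO left was 0.953 (0.944 to 0.962) to the control and 0.821 (0.814 to 0.829) to the contralateral library. This was the only one of the 10 genes at least 1.2-fold lower in any comparison. Its relatives stayed within 1.2-fold: Ndrg1 differed by 0.16, Ndrg3 by -0.03 and Ndrg4 by -0.25 from the control on the log2 scale. Ndrg4, a form common in neurons, had 51926 normalised counts in the MCAO left, 54944 in the contralateral right and 61596 in the control right hemisphere.

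The other 4 genes encode membrane proteins, and each was within 1.2-fold in all 3 comparisons. Slc7a10, on chromosome 7 (35186095 to 35201116), encodes Asc-1, a carrier of small neutral amino acids such as D-serine and glycine. It had 3770 normalised counts in the MCAO left, 3275 in the contralateral right and 3598 in the control right hemisphere. The MCAO left and control right hemispheres did not differ beyond counting error, at a ratio of 1.05 (0.999 to 1.10), while MCAO left was 1.15 times the contralateral library (1.10 to 1.21). The last 239 bases of Slc7a10 overlap Lrp3, which had 2443, 2542 and 3086 in the order MCAO left, contralateral right and control right, and whether counting used strand is not given in the sources used here. Annotated noncoding genes likewise overlap Aldh1l1, Acsbg1 and Cldn10, and without strand their reads cannot be told apart.

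Among 19 genes of amino acid transport and serine synthesis, 3 were higher and 5 lower in MCAO left than control right by 1.2-fold. That compares with 23.3% and 21.1% of all genes, and the median was -0.06. The serine carrier gene Slc1a4 had 6902 normalised counts in the MCAO left, 5022 in the contralateral right and 4827 in the control right hemisphere. Psph, encoding the last enzyme of serine synthesis, had 1099, 1047 and 748. Slc7a7, an amino acid carrier found in macrophages, had 107, 40.8 and 34.9, and was the only one of the list past 2-fold. The related carrier gene Slc7a8 was lower, with 1355, 1397 and 1958, and Slc7a3 had 179, 203 and 260.

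Ntsr2 encodes a receptor for the peptide neurotensin and lies on chromosome 12 (16653443 to 16660236). It had 12094 normalised counts in the MCAO left, 13504 in the contralateral right and 12564 in the control right hemisphere. The spread was small, with MCAO left at 0.963 of the control (0.938 to 0.988) and 0.896 of the contralateral library (0.873 to 0.918). Its first 461 bases overlap Lpin1, which had 1082, 1427 and 1250 in the same order. At 1.2-fold, 23.3% of all genes were higher and 21.1% lower in MCAO left than control right. Of 7 neurotensin and sortilin genes, none was higher and 2 were lower by this rule. These were Sorl1, with 8135, 8175 and 10319.5 normalised counts, and the sortilin gene Sort1, which also binds neurotensin, with 12995, 13390 and 15855. Ntsr1, a receptor mainly of neurons, had 275, 256 and 323, and the peptide gene Nts had 195, 230 and 223.

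Bmpr1b encodes a type I receptor for bone morphogenetic proteins (BMPs), signals that drive astrocyte differentiation, and lies on chromosome 3 (141837135 to 142169585). It had 1436 normalised counts in the MCAO left, 1632 in the contralateral right and 1509 in the control right hemisphere. MCAO left and control right did not differ beyond counting error, at a ratio of 0.952 (0.882 to 1.03), and MCAO left was 0.880 of the contralateral library (0.818 to 0.947). The other type I receptor gene Bmpr1a had 2604, 2766 and 2751, and the type II receptor gene Bmpr2 had 5834, 4865 and 6249.

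Of 31 genes of the BMP pathway, 6 were higher and 9 lower in MCAO left than control right by 1.2-fold. The all-gene shares were 23.3% and 21.1%, and the median of the 31 was -0.08. Bmp1, a protease that was named with the BMPs, had 1729 normalised counts in the MCAO left, 730 in the contralateral right and 840 in the control right hemisphere. The target gene Id1 had 373, 341 and 217, and Id3 had 1723, 1906 and 1123, so that both were higher in the 2 hemispheres of the MCAO animals than in the control. Id4, also of the ID family, was instead lowest in the MCAO left hemisphere, with 1241, 1509 and 1567. The ligand gene Gdf10 had 282, 526 and 479, and the inhibitor gene Fst had 21.2, 56.8 and 73.6 at low counts.

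Cldn10, on chromosome 14 (118787871 to 118874525), encodes a claudin, a tight junction protein that in astrocytes is used as a marker. It had 3034 normalised counts in the MCAO left, 3577 in the contralateral right and 3477 in the control right hemisphere. It was the lowest of the 10 genes relative to the control, at a ratio of 0.872 (0.829 to 0.918), and stood at 0.848 of the contralateral library (0.807 to 0.891). The right hemispheres did not differ beyond counting error, at 1.03 (0.983 to 1.08). The values do not separate transcripts of its 2 annotated starts.

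By the 1.2-fold rule, 23.3% of all genes were higher and 21.1% lower in MCAO left than control right. Of 10 other claudin and claudin-domain genes past the filter, 2 were higher and 4 were lower by this rule. The higher ones belong to other cell types: Cldn11 of myelin had 7094 normalised counts in the MCAO left, 4167 in the contralateral right and 4459 in the control right hemisphere, and Cldn5 of blood vessels had 169, 85.2 and 114. Cldn2, of the choroid plexus, had 44.7, 86.1 and 97.8, and Cldn19 had 113, 133 and 149. Cldn10 thus lay between these, with a smaller difference than any of the 4.

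**Figure D3:**
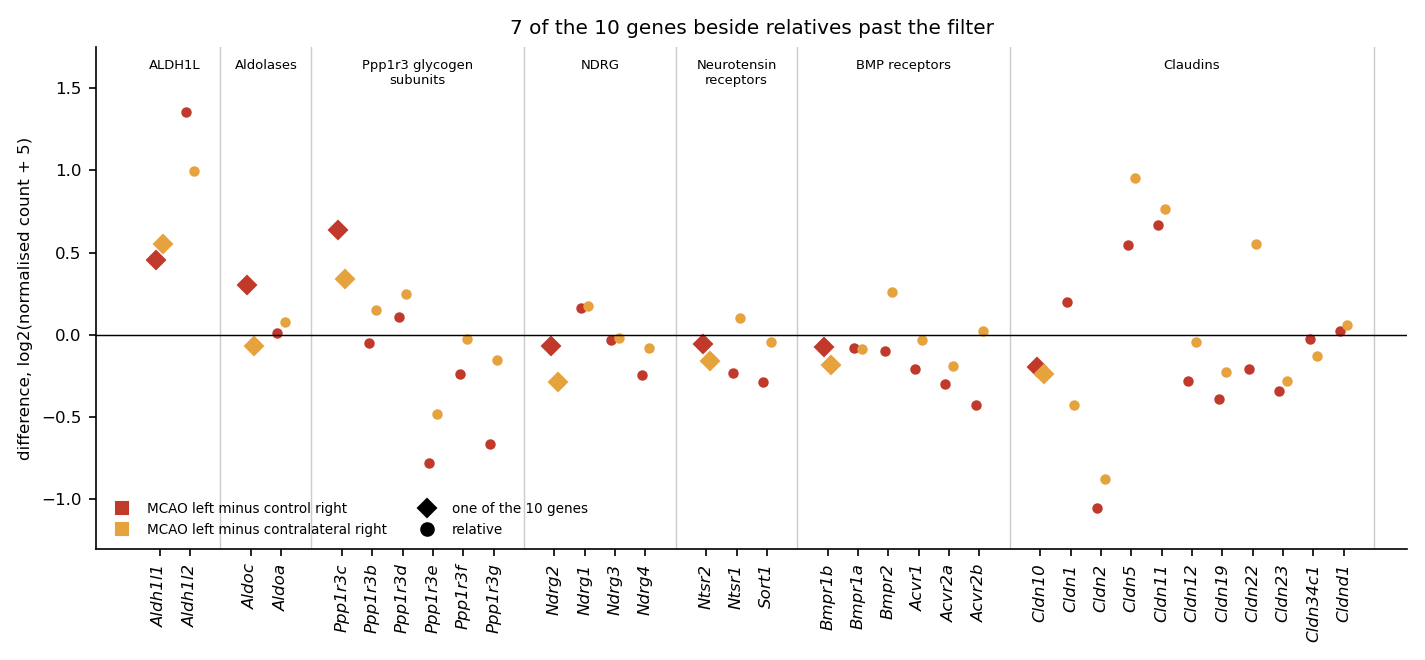
Differences on the log2(normalised count + 5) scale (vertical axis) of 7 of the 10 genes (diamonds) and their relatives (circles), in red for MCAO left minus control right and in orange for MCAO left minus contralateral right, 1 library per group and so without error bars. Ppp1r3c at 0.64 and Aldoc at 0.30 from the control lay above their relatives, whereas Aldh1l1 at 0.46 lay below Aldh1l2 at 1.35.

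In the comparison of MCAO left with contralateral right, the 10 genes had a median difference of 0.02 (-0.0052 when scaled by total reads), against -0.0020 over all genes. Ppp1r3c and Aldh1l1 were at least 1.2-fold higher and Ndrg2 at least 1.2-fold lower, where 15.4% of all genes were higher and 16.5% were lower. At 2-fold the shares were 3.18% and 4.96%, with 0 of 10. Of the 6145 genes with a mean of at least 1000, 7.23% were higher and 4.88% were lower by 1.2-fold. Only 40 of them were higher and 13 lower by 2-fold. In this comparison 5 genes were above the contralateral library and 5 below it, and counting error did not cover the difference for any of the 10.

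For contralateral right against control right, the median of the 10 genes was 0.11, against -0.0037 over all genes. Aldoc, Ppp1r3c and Clu were at least 1.2-fold higher and none was lower, where 21.3% of all genes were higher and 16.2% were lower. At 2-fold, 5.17% and 0.362% were, with 0 of 10. Of the 6145 genes with a mean of at least 1000, 9.72% were higher and 14.9% were lower by 1.2-fold. By 2-fold, 7 of them were higher and 5 lower. Of the 10 genes, only Aldh1l1 and Slc7a10 were below the control. This comparison shares the control library with that of MCAO left against control right, and the contralateral library with that of MCAO left against contralateral right.

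The 10 genes thus fell into 4 orders. Ppp1r3c, Clu and Acsbg1 were highest in MCAO left, then contralateral right, then control right. Aldh1l1 and Slc7a10 were highest in MCAO left and lowest in contralateral right. Aldoc was highest in contralateral right and lowest in the control. Ndrg2, Ntsr2, Bmpr1b and Cldn10 were highest in contralateral right and lowest in MCAO left. Some steps in these orders lay within counting error. They were MCAO left against control right for Slc7a10 and Bmpr1b, and contralateral right against control right for Cldn10.

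Other genes had similar differences. Of the 14906 genes past the filter, 110 others lay within 0.1 of both log2 differences of Aldh1l1 from the control, 143 of those of Ppp1r3c, and 1108, the most, of those of Acsbg1. Among the 6145 genes with a mean of at least 1000, the nearest to Ppp1r3c by Euclidean distance in the 2 differences were Rpl10a, Tst and Arap1, at 0.019, 0.023 and 0.041. Those nearest to Cldn10 were Ufd1l, Dtx1 and Nsg1, at 0.0096, 0.014 and 0.015. The likeness rests on 3 libraries.

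Other astrocyte identity genes likewise stayed within 2-fold of the control. Of 40 further such genes, all past the filter, 8 were higher and 8 lower in MCAO left than control right by 1.2-fold. These counts lay near the shares over all genes, 23.3% higher and 21.1% lower. Most of the 40 had means above 1000. Of the 6145 genes with a mean of at least 1000, 14.4% were higher and 19.4% were lower by 1.2-fold. None of the 40 passed 2-fold, and their median was 0.03. By 2-fold, only 55 of the 6145 were higher and 19 lower, so 0 of 40 does not set these genes apart. Of these 40, Lcat, Gldc and Phkg1 also belong to lists above. The urea transporter gene Slc14a1 had 3408 normalised counts in the MCAO left, 2050 in the contralateral right and 1912 in the control right hemisphere, and Sox9, a transcription factor of astrocytes, had 2623, 2446 and 1522. The glutamate transporter gene Slc1a3 had 35442, 47038 and 51005, and the secreted matrix protein gene Sparcl1 had 122199, 187040 and 169490. Relative to the median of these 40 genes, Ppp1r3c stood at 0.61 and Cldn10 at -0.23 on the log2 scale.

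Genes of reactive astrocytes and markers of other cells differed between the same libraries. The pan-reactive astrocyte list, led by filament and acute-phase genes, had a median difference of 3.02 from the control over 12 genes, and Gfap had 76049 normalised counts in the MCAO left, 12202 in the contralateral right and 5903 in the control right hemisphere. The 20 microglia genes summed to 37372, 13822 and 13312 normalised counts in the same order, with a median difference of 1.44 from the control and none of them listed at the minimum of 1. The 20 neuron genes summed to 376228, 389414 and 439492, with a median of -0.19. Neuron transcripts were thus present in a pull-down the title ties to astrocytes, at a share that was not measured. The 13 oligodendrocyte genes summed to 168142, 112254 and 133151, and the 14 endothelial genes to 4053, 3284 and 3890.5. Macrophage genes, 12 in the table, summed to 13649 in the MCAO left, 1173 in the contralateral right and 733 in the control right hemisphere. The 10 oligodendrocyte precursor genes summed to 14508, 11438.5 and 10924 in the same order. Mural cells of vessels, with 10 genes, had sums of 3604, 3588 and 4187, and ependymal cells, with 10 genes, had 1777, 2019 and 1304. The sums were thus highest in the MCAO left hemisphere for macrophage, microglia, endothelial and both oligodendrocyte lists, in the contralateral right for ependymal genes, and in the control right for neuron and mural cell genes. A sum follows the most abundant genes of its list and does not give the order for each gene. The contralateral library also held transcripts of sperm formation, and their part in the ependymal sum was not tested. The 10 genes themselves summed to 330782, 344810 and 289413. The part of these other cells in the values of the 10 genes was not tested.

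**Figure D4:**
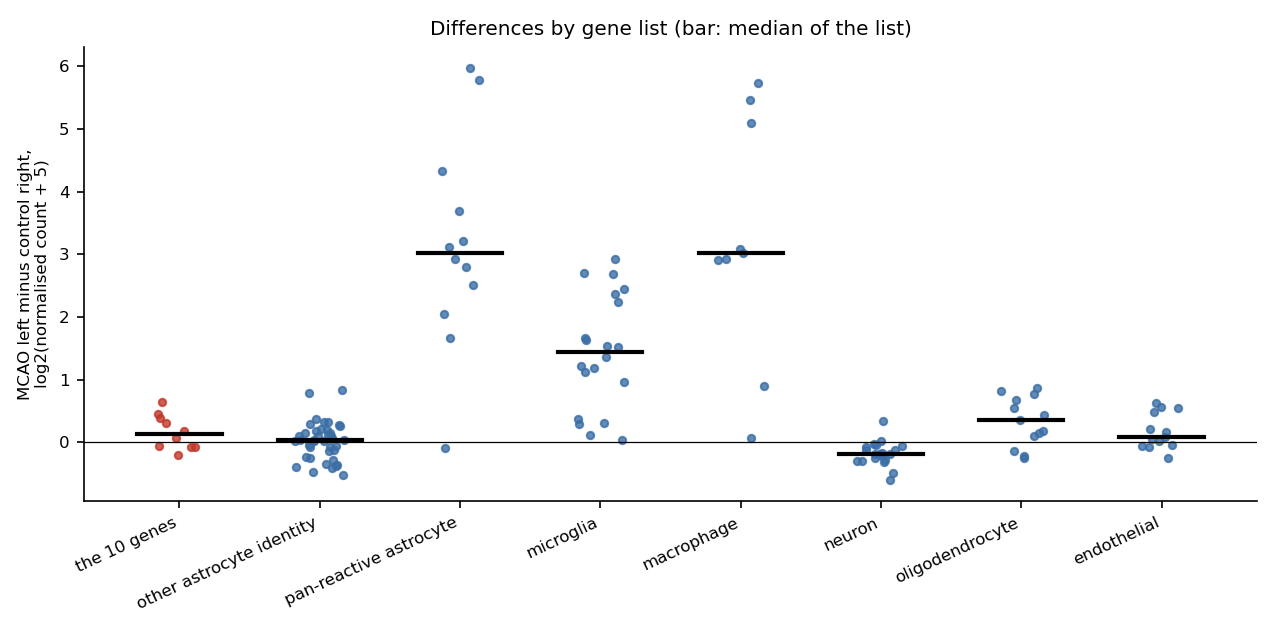
Difference of MCAO left minus control right on the log2(normalised count + 5) scale (vertical axis) for every gene past the filter in 8 lists; each point is a gene and each bar the median of a list, from 1 library per group. The 10 genes (median 0.13) and other astrocyte identity genes (median 0.03) lay near 0, and the pan-reactive genes had a median of 3.02.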

How the data were processed

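The 3 libraries, 1 per group, came as 1 table of signal values that the authors deposited after dividing each library's read counts by its size factor. Tools in the submitters' processing notes, listed there without roles, are HISAT2 2.0.11, CASAVA 1.8, DESeq2, R 3.3.1 and Partek 6.6, and the build is mm10; the counter is not given in the sources used here. Values below 1 were listed as 1. Reads were recovered from the steps between low values: 1 read was worth 1.18 normalised counts in MCAO left, 0.887 in contralateral right and 0.969 in control right, and 99.9% of values above 1 were whole within 0.1 read. Ratios are of normalised counts, and their 95% intervals come from recovered reads, which without molecular identifiers are not independent molecules. Differences used a pseudocount of 5 and a filter (a mean over the libraries of 20 or more) that 14906 genes passed. Levels of different genes were not compared, since no transcript lengths were used.

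Columns were matched through the sample descriptions, and RefSeq names and coordinates (GRCm38.p6) were found for 15912 of the 16610 symbols, including all 10 genes. Besides the 10 genes, up to 4 genes per list with the largest differences of MCAO left from control right were named, with relatives of the 10 and Gfap. Genes named outside this rule, and those in the closing observations, were chosen after their values were seen. The former were Gys1, Gyg, Acsf2, Slc27a1, Slc27a3, Slc1a4, Nts, Id3, Id4 and Apoe. Some genes the rule would name are not reported here. The 10 genes and 21 lists were chosen with earlier results of these data known. The steps were tested on simulated reads and run with Python 3.11.15, numpy 2.4.6, pandas 2.3.3 and scipy 1.17.1. Alternatives were a pseudocount of 1, scaling by total reads, by a trimmed mean of M values or on the other astrocyte genes, and other filters.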

Additional observations from a re-analysis of the deposited data

How the results depend on the processing

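None of the 30 ratios of the 10 genes (10 genes in 3 comparisons) changed direction under a pseudocount of 1, scaling by total reads, scaling by a trimmed mean of M values, or scaling on the other astrocyte identity genes. The medians moved most with scaling by total reads: for contralateral right against control right that of the 10 genes was 0.14 in place of 0.11, and that of the 40 other astrocyte genes 0.07 in place of 0.03. For MCAO left against contralateral right the medians lay near 0 and turned sign with this scaling, to -0.0052 for the 10 genes and -0.0042 for the 40, and relative to the astrocyte genes that of the 10 was -0.00096. Scaling by total reads put 11 of the 30 differences, and scaling on the astrocyte genes 12, outside their own counting intervals. Background counts depend on the filter. Without a filter, 295 genes were lower by 2-fold for MCAO left against control right, 1391 were lower for MCAO left against contralateral right, and 1415 were higher and 112 lower for contralateral right against control right, in place of 187, 740, 771 and 54. With a mean of at least 1000, a filter chosen after the data were seen, MCAO left against control right gave 55 higher and 19 lower at 2-fold, and 887 and 1192 at 1.2-fold. The same filter gave 40 and 13, then 444 and 300, for MCAO left against contralateral right, and 7 and 5, then 597 and 916, for contralateral right against control right. The restriction itself removes low genes, which vary more by counting. No paired analysis was possible because each group has 1 library. With 1 pooled library per group, differences between animals were not measured, and counting intervals are narrow at these depths.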

Other observations

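Some relatives and partners of the 10 genes had their highest or lowest value in the contralateral library, and were chosen after their values were seen. Acsbg2, the closest relative of Acsbg1, had 131 normalised counts in the contralateral right hemisphere, where the MCAO left and control right hemispheres were both listed at the minimum of 1. Lrp1, a large receptor for lipoproteins, had 136623 normalised counts in the MCAO left, 90969 in the contralateral right and 168402 in the control right hemisphere, so that its lowest value was in the contralateral library while Apoe, which it binds, had its highest value there. Phkg2, a catalytic subunit of phosphorylase kinase, had 1322, 1922 and 1442 in the same order, and Mthfs, a folate enzyme gene, had 89.4, 125 and 69.7. Genes of sperm formation were also highest in this library, and their part in these values was not tested.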
